A study of Mus musculus with 2 samples.

Results

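In mouse intestinal organoids at day 5 of culture, 200 cells carried enterocyte transcripts without the highest levels of late digestive and transport genes. They are called the members below, and they were chosen from the 1065 cells of the day 5 library by a pair of scores. Score M is the mean log2 value of 8 genes, Apoa4, Ace, Guca2b, Slc15a1, Cyp3a11, Ggt1, Cyp2c29 and Aldh1a1, and score E the mean of 7 genes, Fabp1, Adh4, Khk, Rdh7, Sis, Hsd17b2 and Slc7a9. The 230 day 5 cells of highest M were set aside and are called mature cells. The 200 cells of highest E among those left are the members, and the other 635 day 5 cells are called the rest. The series holds 1863 cells in all, 798 of them from day 3, so the members make up the top of score E outside the mature cells of a single library.

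Organoids of small intestinal epithelium are cultures in which stem cells divide and give rise to absorptive enterocytes, to Paneth, goblet and enteroendocrine cells and to tuft cells. An enterocyte leaves the dividing zone of the crypt, stops cycling and climbs the villus, and on the way it builds a brush border of microvilli set with digestive enzymes and transporters. Genes of fat and sugar uptake, of antimicrobial defence and of drug metabolism come on at different heights of the villus in mouse intestine. The cells here came from wild type C57BL/6 organoids labelled 10 weeks of age. They grew in a medium with R-spondin, Noggin and EGF, which had also held 20% Wnt3a-conditioned medium and the ROCK inhibitor Y-27632 at 10 µM up to day 3, and the GSK3B inhibitor CHIR99021 at 3 µM up to day 1. There was 1 library per day and no replicate, so no difference below has a test or a p-value, and intervals cover counting error only. An organoid has no villus, and a cell's place in the organoid is not recorded in these files.

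The members are a range of the score and not a separate group of cells. Score E of the lowest member was 3.462 and that of the highest cell left out 3.457, and score M was 2.854 in the highest member against 2.885 in the lowest mature cell. Within 0.1 of the E limit lay 31 members and 24 cells of the rest, and within 0.1 of the M limit 3 members and 17 mature cells. Of the 230 mature cells, 166 had an E at or above that of the lowest member. No cell of day 3 reached it: the highest E among the 798 day 3 cells was 2.955, so no day 3 cells could be set beside the members within the same limits. Over the members, M ran from 0.00 through a median of 1.89 to 2.85, and M and E were nearly unrelated among them (Pearson r = 0.12 over 200 cells of the same library).

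**Figure D1:**
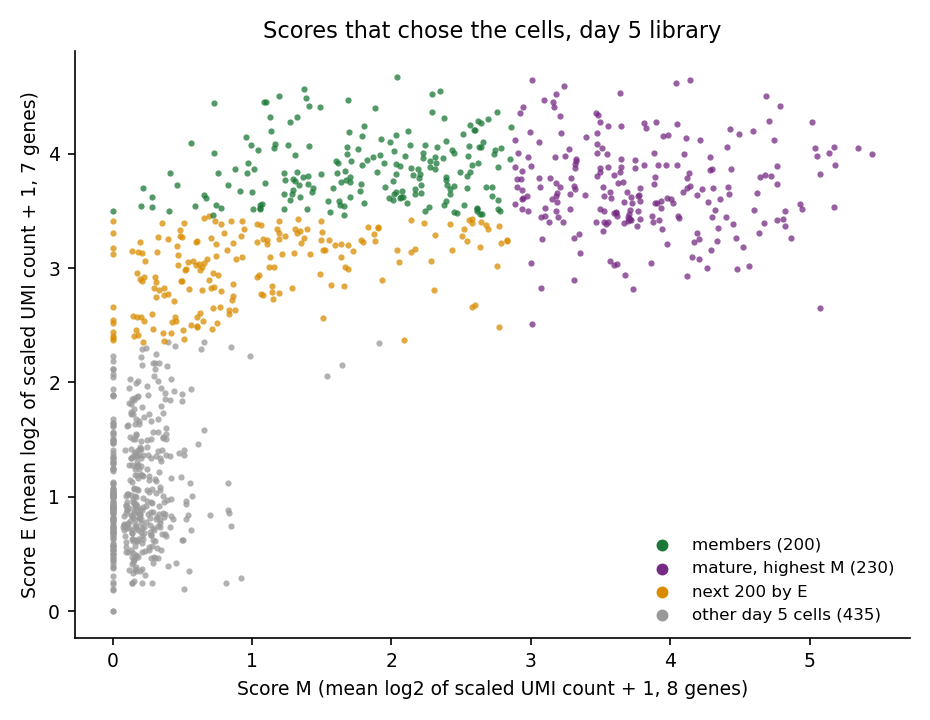
Score M (x axis) and score E (y axis) of each day 5 cell, both as means of log2 (scaled UMI count + 1). The 200 members fill the area above an E of 3.46 and left of an M of 2.85, next to the 230 mature cells on the right and the next 200 cells by E just below, with no gap at either limit.

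The library counts each captured transcript once by its unique molecular identifier (UMI). The members held 2545148 UMIs, with 7164 to 32096 and a median of 12263.5 per cell, against medians of 9749.5 in mature cells and 16949 in the rest. The median cell had 2510.5 detected genes among members, 2370.5 among mature cells and 3317 in the rest. Cytosolic ribosomal protein genes took a median of 36.7% of a member's UMIs, against 24.8% in mature cells and 42.8% in the rest. Transcripts of the mitochondrial genome took 7.2%, against 10.3% in mature cells and 5.46% in the rest. The part of these shares and of depth in the differences below was not tested, and list counts under other scalings are given where they move by over 1.5 times.

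**Figure D2:**
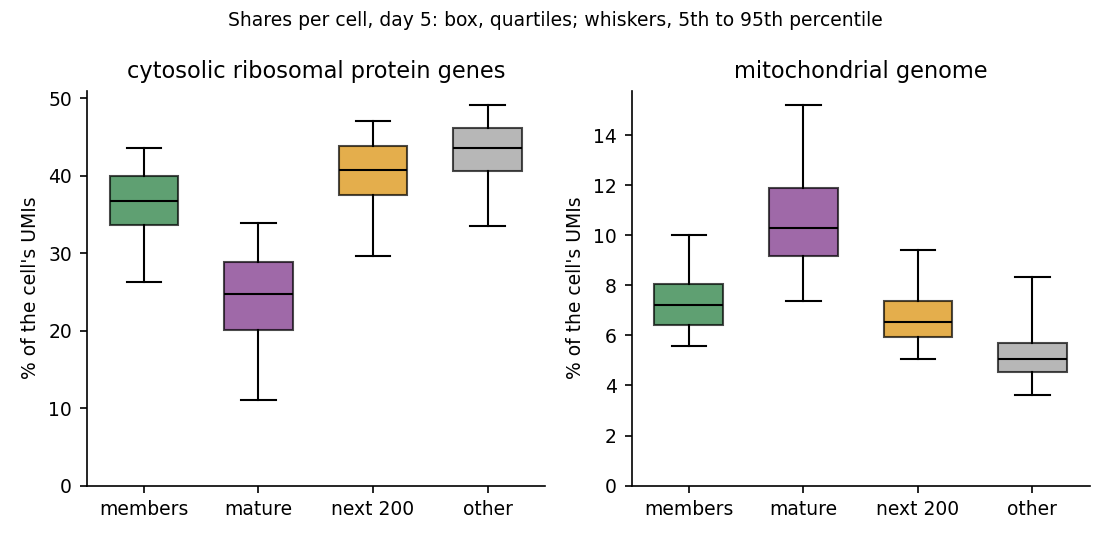
Percent of each day 5 cell's UMIs that fell on cytosolic ribosomal protein genes (left) and on the mitochondrial genome (right), as boxes of quartiles with whiskers at the 5th and 95th percentile. Members, with medians of 36.7% and 7.2%, lie between mature cells at 24.8% and 10.3% and the next 200 cells by E at 40.8% and 6.52%.

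All 7 genes of score E were present together in 85 members, and 186 of the 200 held at least 6. These genes chose the cells, so their values are a description. Fabp1, the liver-type fatty acid binding protein that carries fatty acids through the cytosol, had 11.8, 88.3 and 681 UMIs per 10000 in the lowest, median and highest member, against 7.77, 82.3 and 339 in mature cells. Its median in the next 200 cells by E was 36 and in the 435 cells below them 1.66. Sis, the sucrase-isomaltase that splits sucrose and starch fragments at the brush border, had a median of 24.9 UMIs per 10000 in members, against 33 in mature cells. For both genes the members overlapped the mature cells over most of their range.

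For the other E genes, UMIs were summed over all cells of a class and scaled to CPM, the count out of each 1000000 UMIs of the class. Khk, the ketohexokinase that starts fructose breakdown, had 1498.1 CPM in members and 1558.3 in mature cells. Rdh7, a retinol dehydrogenase, had 259 and 308 CPM in members and in mature cells, and Slc7a9, a subunit of the cystine and basic amino acid carrier, 195 and 166. Adh4, an alcohol dehydrogenase, had 110 CPM in members and 75.4 in mature cells. Hsd17b2, which inactivates sex steroids, had 127 CPM in members, against 59.1 in mature cells, a log2 ratio of 1.10 (counting interval 0.81 to 1.40) and the highest of the 7. Against the rest, the log2 ratios of the 7 genes ran from 1.83 to 3.01.

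The 8 genes of score M were set low in the members by the choice of cells, and their values show by how much. Apoa4, a lipoprotein component made on fat absorption, had 635 CPM in members, against 2573.1 in mature cells and 68.9 in the rest. Ggt1, a gamma-glutamyl transferase of the brush border, had 9.04 CPM in members, against 157 in mature cells, and its log2 ratio of -4.09 was the lowest of the 8. The other 7 stood at log2 ratios of -3.42 to -1.70. The 7 of them with enough UMIs were higher in members than in the rest by log2 ratios of 2.48 to 3.20. The median member held a UMI of 5 of the 8 genes, and the median mature cell of 7.

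To describe all other genes, a gene counted as higher or lower when its summed CPM differed by at least 1.5-fold with exact Poisson 95% intervals that did not overlap, among genes with a mean of at least 10 CPM over both classes. Against mature cells, 195 of 5985 genes were higher in members (3.26%) and 833 lower (13.9%), with a median log2 ratio of -0.19. Against the rest, 929 of 6304 genes were higher (14.7%) and 1549 lower (24.6%), with a median of -0.15. The classes were cut from the same values, so genes that move with the scores had to differ and nothing is read from these totals. With the TMM scaling of edgeR the medians moved to -0.02 and 0.05, and the counts to 377 higher and 502 lower against mature cells and 1324 higher and 1169 lower against the rest. With CPM taken without ribosomal protein and mitochondrial genes they were 385 and 462 of 7185 genes, and 818 and 2418 of 7987. Gene lists are therefore read against these medians and against the shares of all genes given above.

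Brush border digestive enzymes were lower in members than in mature cells in 13 of 13 genes measured, with a median log2 ratio of -1.11, and higher than in the rest in 11 of 11, with a median of 2.18. Anpep, aminopeptidase N, had 0, 3.25 and 15.7 UMIs per 10000 in the lowest, median and highest member, against 0, 7.1 and 28.5 in mature cells, and the classes overlapped. In the 435 cells of lowest E its median was 0. Lct, the lactase of milk sugar digestion, stood at -1.84 against mature cells (counting interval -2.32 to -1.41) and 3.27 against the rest, and Naaladl1, a peptidase, at -1.94 against mature cells. Mep1b, a meprin subunit, was closer to the mature level at -0.62. With TMM scaling 10 of the 13 stayed lower.

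Genes of microvillus structure followed with a shallower difference. Against mature cells 9 of 12 were lower and none higher, with a median log2 ratio of -0.90, and against the rest 10 of 12 were higher, with a median of 0.91. Krt20, a keratin of differentiated gut epithelium, had 81.7 CPM in members, against 237 in mature cells and 13.5 in the rest. Pls1, an actin bundler, had 93.5 CPM in members, against 249 in mature cells. Cdhr2 and Cdhr5, protocadherins that link microvillus tips, stood at -1.13 and -0.87 against mature cells. A few structural genes were near the mature level: Vil1 (villin) at -0.33, Ezr (ezrin) at -0.41 and Ush1c (harmonin) at -0.12.

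Genes for transport of amino acids and sugars ranged from near the mature level to well below it. Among amino acid carriers 4 of 7 were lower in members than in mature cells, with a median of -0.71, and 6 of 7 higher than in the rest. Slc6a19, the main carrier of neutral amino acids, had 53 CPM in members, against 157 in mature cells and 8.21 in the rest, whereas Slc7a7, a basolateral carrier of basic amino acids, had 148 CPM, against 183 in mature cells and 49.8 in the rest. In the sugar list 5 of 9 were lower than in mature cells, with a median of -0.61, and 8 of 9 higher than in the rest, with a median of 1.78. The lower count was 3 of 9 with TMM scaling and also without ribosomal and mitochondrial genes. Slc5a1, the sodium-glucose carrier SGLT1, had 511 CPM in members and 993 in mature cells. Pck1, of glucose synthesis, was the lowest of the list at -1.44 against mature cells.

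Lipid uptake genes were lower in members than in mature cells in 12 of 15 cases, with a median of -0.94, and higher than in the rest in 14 of 15, with a median of 1.67. Apoa1, the main protein of high density lipoprotein, had 0, 44.1 and 582 UMIs per 10000 in the lowest, median and highest member, against 36.2, 125 and 418 in mature cells. Of the 200 members 82 lay below the lowest mature cell, and 10 lay above the mature median. Its summed level was 5364.3 CPM in members, against 13055 in mature cells and 598 in the rest, with log2 ratios of -1.28 (-1.31 to -1.25) and 3.17 (3.12 to 3.21). Fabp2, the intestinal fatty acid binding protein, had 2000.3 CPM in members and 3784.5 in mature cells. Apoc3 and the fatty acid receptor Cd36 were the lowest of the list against mature cells, both at -1.35, and Plin2, a lipid droplet coat protein, the highest at 0.17.

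Drug metabolism genes, listed without Cyp3a11 and Cyp2c29 of score M, were closer to the mature level. Of 19, 7 were lower and none higher in members than in mature cells, with a median of -0.50, and 17 were higher than in the rest, with a median of 1.35. The lower count was 4 of 19 with TMM scaling and 4 of 20 without ribosomal and mitochondrial genes. Cyp3a25 and Cyp3a13 were lowest against mature cells at -1.56 and -1.30, and Gsta4 and Ces2a highest, both at 0.04. Cyp2d26 and Cyp2b10 led against the rest at 2.79 and 2.70. Fatty acid oxidation showed a small difference from mature cells. Of its 10 genes 3 were lower, beside 13.9% of all genes, and the median was -0.25, beside -0.19 over all genes. Without ribosomal and mitochondrial genes the median became 0.02, with 1 of 11 genes higher and 2 lower. Many Cyp, Gst and Ces genes have close paralogs, and how reads shared between them were counted is not given in the sources used here.

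**Figure D3:**
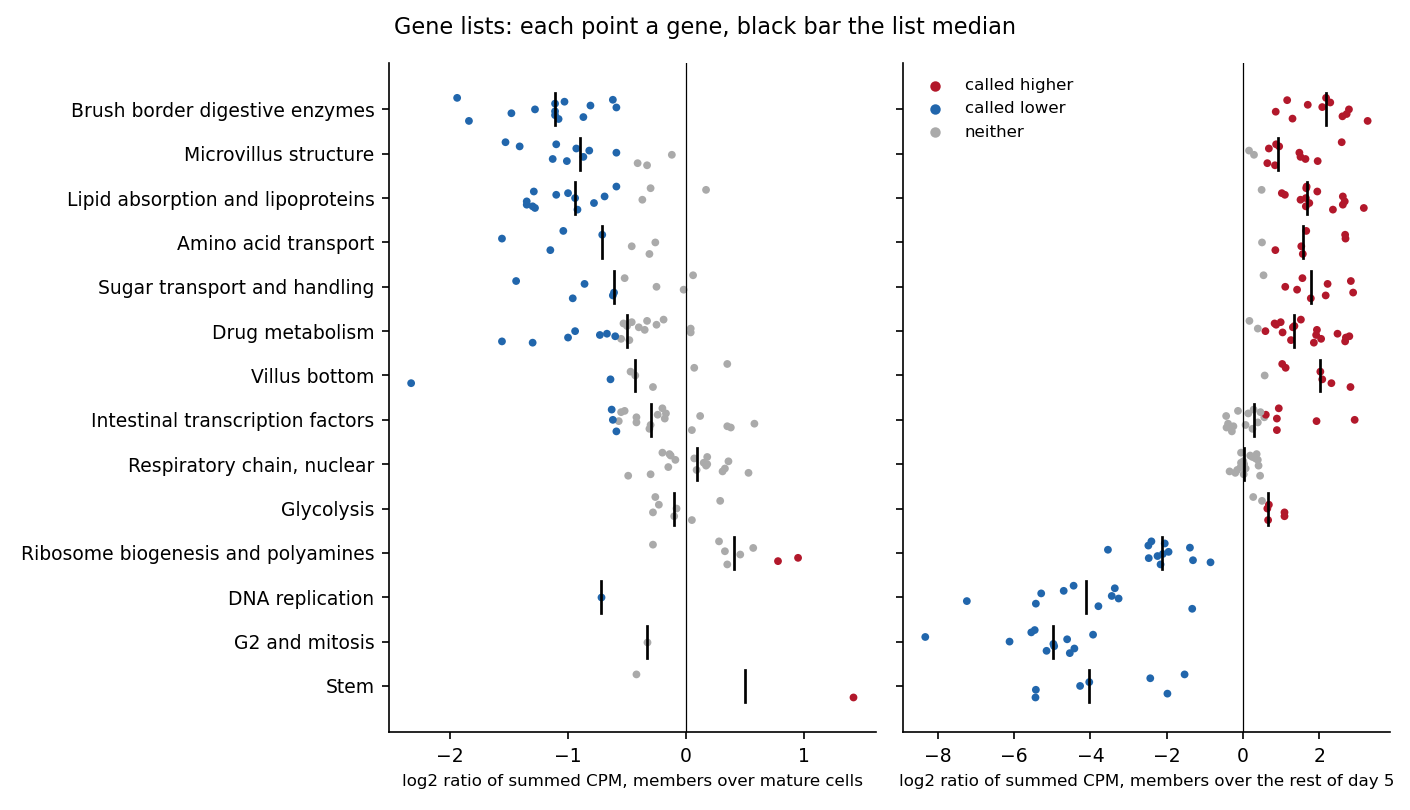
Log2 ratios of summed CPM for single genes (points) of 14 gene lists, members over mature cells (left) and members over the rest of day 5 (right), with the list median as a black bar and colour for genes counted as higher or lower. The medians of the absorptive lists lie left of 0 on the left, down to -1.11 for brush border enzymes, and right of 0 on the right, up to 2.18. The cell cycle lists lie far left on the right, with medians of -4.11 and -4.97.

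The antimicrobial and epithelial defence genes that mark the lower villus in mouse differed from each other. Reg1, a secreted lectin-like protein, had 0, 125 and 445 UMIs per 10000 in the lowest, median and highest member, against 0, 154 and 570 in mature cells. It had 13279 CPM in members, against 16077 in mature cells and 1879.2 in the rest, so that members stood near the mature level. Reg3b, a bactericidal lectin, had 0, 1.95 and 187 UMIs per 10000 in members, against 0, 13.7 and 785 in mature cells. Its summed level of 835 CPM in members, against 4190.9 in mature cells, gave a log2 ratio of -2.33 (-2.40 to -2.26). The 10 members with the most Reg3b held 42.7% of the class's Reg3b UMIs, so the sum rests on few cells. Reg3g stood at -0.64 and Reg3a at -1.64, and these genes are close paralogs whose reads may be split between them. Lypd8, which keeps bacteria off the epithelium, and the chemokine Ccl25 were at or above the mature level at 0.07 and 0.35. The list of lower villus genes has 7 genes and does not hold Reg3a. Of these 7 genes 2 were lower than in mature cells, 1 with either other scaling, and 6 were higher than in the rest.

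By the rule for named genes, the lowest against mature cells outside score M were Reg3b, Dpep1, Reg3a, Cndp2, Cyp3a25, Slc6a19, Krt20, Cgref1, Papss2, Clca4b, Pls1 and Guca2a, from -2.33 to -1.38. Dpep1 and Cndp2 are peptidases, and Papss2 makes the donor for sulphation. Dpep1 had 50.3 CPM in members and 183 in mature cells, and Cndp2 had 121 and 369 CPM in members and in mature cells. Each of the 12 was higher in members than in the rest, by log2 ratios of 0.95 for Pls1 to 3.23 for Reg3a. The 12 highest against the rest were Reg3a, Apoa1, Creb3l3, Reg1, Papss2, Cyp2d26, Mme, Clec2h, Anpep, Spink1, Cyp2b10 and Slc6a20a, from 3.23 to 2.68.

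Some genes ran the other way, higher in members than in mature cells. The 12 that the rule names were Eef1g, Lgals2, Pycard, Rbm3, Txnip, Snrpf, Plgrkt, Hspe1, Krt18, Eif3e, Cct5 and Hspd1, from 1.09 to 0.79. Lgals2, a galectin, had 3.73, 19 and 51.3 UMIs per 10000 in the lowest, median and highest member, against 0, 8.78 and 36.6 in mature cells, and 191 of the 200 members were above the mature median. Its level climbed further in the other classes, to a median of 26.3 in the next 200 cells by E and 47.8 in the cells below them. Pycard, the inflammasome adaptor ASC, had 608 CPM in members, against 310 in mature cells and 607 in the rest. Krt18, a keratin of simple epithelia, had 428 CPM in members, against 236 in mature cells and 817 in the rest. Rbm3 and Snrpf act on RNA, Eef1g and Eif3e in translation, and Hspe1, Hspd1 and Cct5 are chaperonins. Of these 12 genes 6 were counted lower in members than in the rest, and none higher.

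Ribosomal protein genes differed from mature cells more than from the rest. Of 88 cytosolic ribosomal protein genes, 41 were higher in members than in mature cells and none lower, with a median of 0.57, and 64 were higher with TMM scaling. Against the rest 3 of 87 were lower and none higher, with a median of -0.21, close to the median of all genes at -0.15. Ribosome biogenesis genes were counted higher than in mature cells in 2 of 8 cases, Npm1 at 0.78 and Fbl at 0.95, and were lower than in the rest in 12 of 12, with a median of -2.13. Ncl, nucleolin, had 128 CPM in members, against 101 in mature cells and 575 in the rest. Many ribosomal protein genes have processed pseudogenes, and their reads may be shared.

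None of 17 nuclear genes of the respiratory chain was higher or lower in members against mature cells or against the rest, with medians of 0.09 and 0.03. With TMM scaling 1 was higher than in mature cells and 3 higher than in the rest. Without ribosomal and mitochondrial genes 1 was higher than in mature cells, and the median against the rest was -0.09. Cox4i1 had 2307.1 CPM in members, against 2455.4 in mature cells and 1758.3 in the rest. Of 7 glycolytic genes none differed from mature cells, with a median of -0.10 that became 0.06 with TMM scaling and 0.04 without ribosomal and mitochondrial genes. Against the rest 5 of 7 were higher, and without ribosomal and mitochondrial genes 2 of 9 were higher and 1 lower. Gapdh and Aldoa were higher than in the rest by 1.09 each. The median of the 13 mitochondrial genome genes was -0.49 against mature cells and 0.33 against the rest.

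Members held few transcripts of dividing cells. Summed over 23 cell cycle genes the median member had 1 UMI and the highest 5, and no member reached 10 UMIs, a level held by 2 of 230 mature cells and 335 of 635 cells of the rest. Against the rest 10 of 10 DNA replication genes and 11 of 11 genes of G2 and mitosis were lower, with medians of -4.11 and -4.97. Those medians did not move when Mcm5 and Cenpf, which had 0 UMIs in members, were set at their bound of 3 UMIs. Mki67 had 7 UMIs in all members together (2.75 CPM), against 4.19 CPM in mature cells and 68.4 CPM in the rest. Hmgb2, a chromatin protein of cycling cells, had a median of 0 and a maximum of 2.61 UMIs per 10000 in members, against 0 and 11.9 in mature cells, and in the 435 cells of lowest E its median was 7.55. Pclaf and Ube2c led the genes lower than in the rest at -6.16 and -6.12.

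Stem cell and Wnt genes were at the same low level with few exceptions. Against the rest 7 of 7 stem genes and 3 of 3 Wnt target genes with enough UMIs were lower, with medians of -4.03 and -2.83. Lgr5, the receptor that marks crypt stem cells, had 1 UMI in 200 members, against 0.419 CPM in mature cells and 25.6 CPM in the rest. Smoc2, another stem cell marker, was the exception. It had 36.1 CPM in members, against 13.4 in mature cells and 143 in the rest, a log2 ratio over mature cells of 1.42 (0.84 to 2.06). With each cell thinned to 6700 UMIs, 21.0% of members (exact 95% interval 15.6% to 27.3%) and 8.70% of mature cells (5.39% to 13.1%) held a Smoc2 UMI. Without thinning the shares were 33.5% and 11.3%. Free RNA can give UMIs to cells that do not make a transcript, and its part in these shares was not tested. Defa24, a Paneth cell defensin, was found after thinning in 43.5% of members, 47.4% of mature cells and 45.7% of the rest.

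Among regulators of the crypt and lower villus, Hes1 and Id1 were higher in members than in mature cells. Hes1, the main target of Notch signalling, had 237 CPM in members, against 146 in mature cells and 220 in the rest, and its log2 ratio over mature cells was 0.69 (0.50 to 0.89). Of 3 Notch genes with enough UMIs it was the 1 higher, while the ligand Dll1 was lower at -1.57, with a list median of 0.10. Id1, a target of BMP signalling, had 28.3 CPM in members, against 7.54 in mature cells and 35.5 in the rest. The BMP list itself had 1 gene higher and 2 lower of 3 against mature cells, with a median of -0.94. The median was -0.78 with TMM scaling. Without ribosomal and mitochondrial genes it was 0.46 over 5 genes, still with 1 higher and 2 lower. The secretory regulator Atoh1 had 1 UMI in all members. Krt7, a keratin from the regenerating and fetal-like list, had 66.8 CPM in members, against 29.3 in mature cells and 81.1 in the rest. In members Ly6a had 1 UMI and Anxa1 had 0. Of that list 1 of 3 genes with enough UMIs was higher than in mature cells, with a median of 0.44. Against the rest 0 of 4 were higher and 2 lower, with a median of -0.91.

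Of 19 intestinal transcription factors none was counted higher in members than in mature cells and 3 were lower. These were Hnf4a at -0.59, Creb3l3 at -0.62 and Vdr at -0.63. Over all genes 13.9% were lower, so this count is near the general share. The list median was -0.30, against -0.19 over all genes. With TMM scaling none of the 19 was lower and 1 was higher. Without ribosomal and mitochondrial genes none of 20 was lower and 2 were higher. Klf5, a factor of crypt and lower villus cells, had 260 CPM in members, against 174 in mature cells and 341 in the rest. Cdx1 and Cdx2, caudal factors of intestinal identity, had 128 and 108 CPM in members, against 98 and 84.6 in mature cells and 173 and 129 in the rest. Against the rest 6 of 19 were higher and none lower, beside 14.7% higher and 24.6% lower over all genes. Creb3l3, a membrane-bound factor of lipid metabolism, led at 2.93, with 230 CPM in members, against 353 in mature cells and 30.1 in the rest, and Maf followed at 1.93.

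Edn2, which encodes an endothelin, and Depp1, a target of FOXO factors, marked a subset of members. Edn2 had 37.3 CPM in members, against 10.1 in mature cells and 22.3 in the rest, with log2 ratios of 1.87 and 0.75. Depp1 had 46.4 CPM in members, against 3.77 in mature cells and 45.7 in the rest, with log2 ratios of 3.55 (2.65 to 4.78) and 0.02. After thinning, a UMI of either gene was found in 30.0% of members, 6.96% of mature cells, 42.5% of the next 200 cells by E and 15.9% of the cells below those. Without thinning the shares were 39.5%, 12.2%, 62.5% and 31.7%. The 10 members with the most Depp1 held 54.2% of its UMIs in the class.

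**Figure D4:**
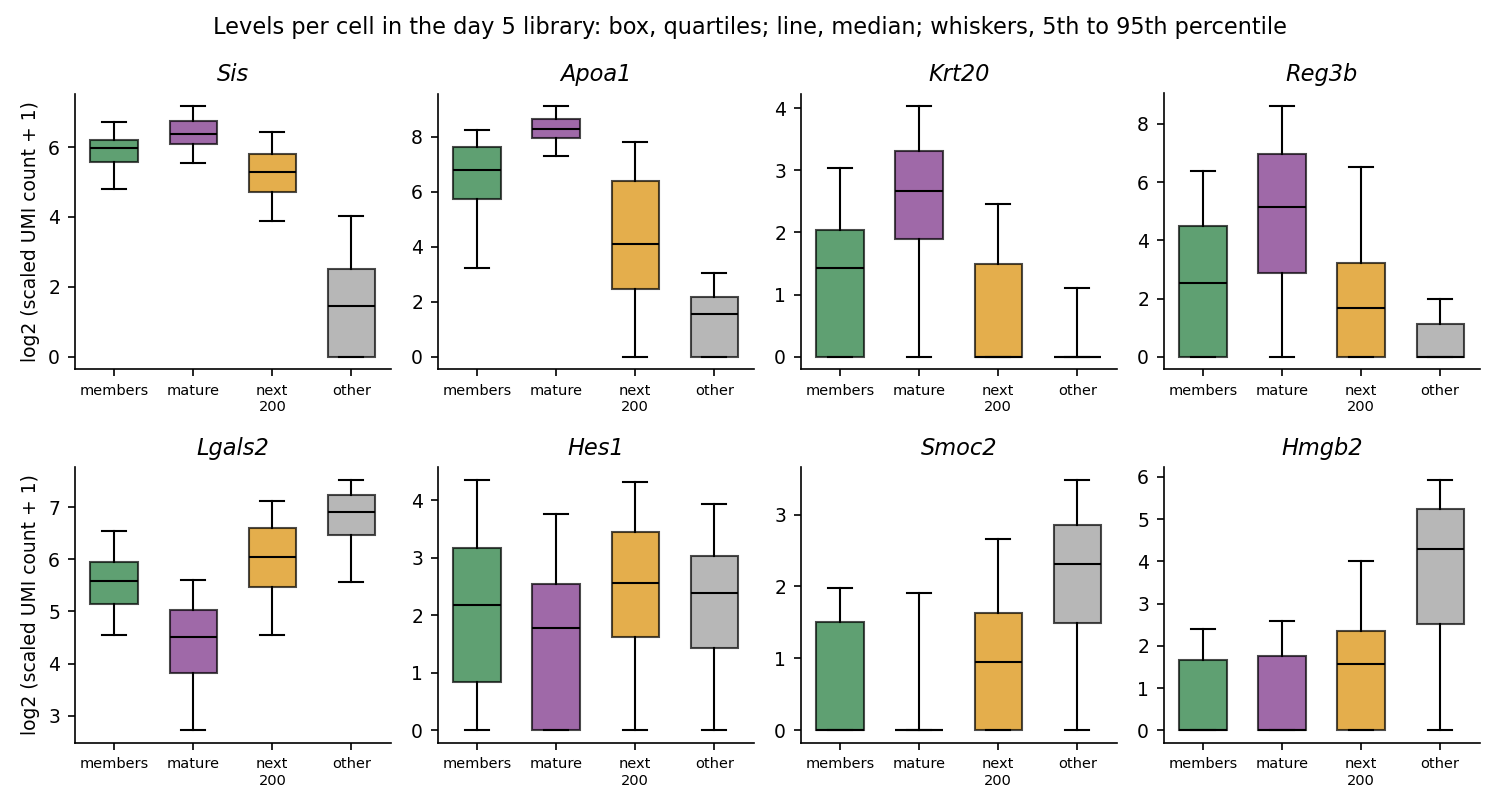
Log2 (scaled UMI count + 1) of 8 genes per cell in 4 classes of day 5 cells, as boxes of quartiles with the median and whiskers at the 5th and 95th percentile. Per 10000 UMIs, Apoa1 has medians of 44.1 in members, 125 in mature cells and 6.6 in the next 200, Lgals2 of 19, 8.78 and 26.3 in the same classes, and Hmgb2 of 0 in members and in mature cells.

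Markers of other cell types were at or near 0. Goblet markers had a median of 1.92 UMIs per 10000 per member with a maximum of 12.5, against a median of 2.99 and a maximum of 563 in mature cells. All 7 goblet genes were lower in members than in mature cells, with a median of -4.24, but 4 mature cells held 94.6% of the Muc2 and 94.6% of the Zg16 UMIs of that class. Without those cells 4 of the 7 genes had enough UMIs against mature cells, of which 2 were lower, with a median of -0.73. These 4 were Tff3 at -1.20, Fcgbp at -0.87, Spink4 at -0.60 and Zg16 at -0.55. Clca1 at -0.87, Muc2 at -0.13 and Agr2 at 1.27 then fell under a mean of 10 CPM and rest on few UMIs. Paneth markers had a median of 0.995 UMIs per 10000 and a maximum of 4.45 in members, against 1.15 and 6.99 in mature cells, and Lyz1 had 1 UMI in all members. Of 10 enteroendocrine markers 3 had 0 UMIs in members, of 6 tuft markers 5, and of 5 immune and stromal markers 4, Lyz2, Cd68, Vim and Ccl5. Absorptive genes that the rule did not use were frequent in members, among them Apoa1, Fabp2 and Anpep. These 3 moved with score M over the members (correlations of 0.76, 0.59 and 0.47), and Apoa1 also had 2014.8 CPM in the next 200 cells by E. Their presence follows in part from the choice of cells and does not test the label. Scrublet, run on the 1065 cells of day 5 at an expected 6%, called 7 doublets and none among members or mature cells. The 4 goblet-rich mature cells were thus not called, and so few calls do not show that the classes were free of doublets. No cell was removed.

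Score M was free to vary among the members below its limit. They were split at their M into 4 sets of 50 cells, with M of 0.00 to 1.29, 1.3 to 1.89, 1.90 to 2.37 and 2.38 to 2.85. Their median E hardly moved, at 3.73, 3.81, 3.88 and 3.84. Median depth was 12389, 12990.5, 11845 and 11229 UMIs per cell, ribosomal protein genes took 39.7%, 38.7%, 35.1% and 32.8% of UMIs, and the mitochondrial genome 6.87%, 7.09%, 7.72% and 7.75%. The part of depth and of these shares in the trends below was not tested.

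Apoa1 climbed with M, with 1826.8, 3151.3, 6723.7 and 10468 CPM over the 4 sets, and its correlation with M over the 200 members was 0.76. Crip1, a small LIM protein, had 1168.8, 1753.5, 2754.8 and 3749.1 CPM, with a correlation of 0.69, and Clec2h, a lectin-like surface protein, 397, 640, 950 and 1207.8 CPM, with 0.65. Fabp2 had 1210.2, 1571.3, 2323.9 and 3042.4 CPM, with 0.59. Guca2a, the peptide hormone guanylin, climbed as well, with 18.4, 217, 346 and 486 CPM, although the 10 highest members held 34.5% of its UMIs. Anpep, Gsta1, Papss2 and Dpep1 also climbed at each step, and their log2 ratios of the highest over the lowest set were 1.53, 1.27, 1.31 and 2.27. These correlations share a library and depth with the score and are given as descriptions.

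Score E genes varied less along the same order, though Sis went up at each step, with 2027.8, 2223.3, 2658.5 and 2959.2 CPM. Fabp1 had 10390, 11523, 12411 and 10933 CPM over the 4 sets of rising M, and Slc7a9 had 192, 191, 201 and 197 CPM. Khk, Rdh7 and Sis had log2 ratios of the highest over the lowest set of 0.26, 0.39 and 0.55, and Hsd17b2 and Adh4 of -0.20 and -0.70. Since every member passed the same E limit, a narrow range of these genes follows from the choice. No gene outside the score correlated with E by more than 0.25 among members, with Cyb5a and Fabp2 at the top, and values this low in sparse counts are no finding.

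A further set of genes ran down as M went up. Depp1 had 104, 41.9, 19.6 and 15.3 CPM over the 4 sets, and Edn2 had 61.4, 44.8, 24.5 and 15.3 CPM. Cells with a UMI of either numbered 28, 23, 18 and 10 of 50. Id1 had 50.6, 27.5, 19.6 and 13.6 CPM, and Smoc2 52.2, 47.7, 21.2 and 20.4 CPM. Klf5, Lgals2 and Hes1 fell less, with log2 ratios of -0.88, -0.79 and -0.63 of the highest over the lowest set. Of the 20 genes with the lowest correlation with M, 18 were ribosomal protein genes, led by Rps2 at -0.60, and Lgals2 was among the others at -0.49. The same ribosomal genes correlated with the log2 of a cell's UMI count, Rps2 at 0.33. Reg3b did not follow M in either direction, with 278, 1150.7, 1243.6 and 657 CPM.

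**Figure D5:**
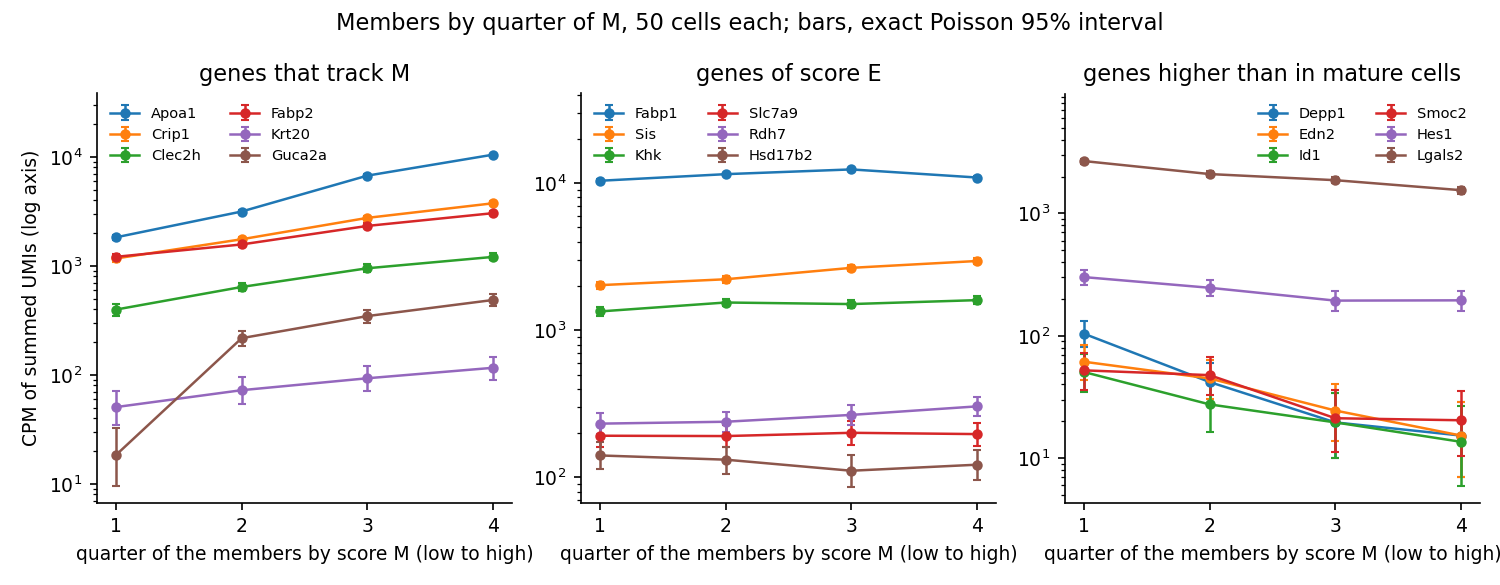
CPM of summed UMIs (log axis) in 4 sets of 50 members ordered by score M, with exact Poisson 95% intervals as bars. Apoa1 goes from 1826.8 to 10468 CPM and Guca2a from 18.4 to 486 (left), Fabp1 stays between 10390 and 12411 (middle), and Depp1 goes from 104 to 15.3 CPM (right).

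The 200 cells next below the members by E were set beside them as a nearer comparison, added after the values were seen. Their median E was 3.06 and their median M 0.84, and their cells held 13593.5 UMIs at the median. Of 5944 genes 153 were higher (2.57%) and 261 lower (4.39%) in members, with a median of -0.06. Brush border enzymes were higher in members in 7 of 11 cases with a median of 0.66, and lipid genes in 8 of 15 with 0.64, while microvillus genes were higher in 1 of 12 with 0.24. Apoa1 had 5364.3 CPM in members and 2014.8 in the next 200, and Creb3l3 had 230 CPM in members and 103 in the next 200. All 5 measurable stem genes were lower in members, as were 5 of 5 genes of G2 and mitosis. Edn2 and Depp1 were lower in members than in the next 200, at log2 ratios of -0.69 and -0.88.

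Upstream sequence is shown for genes of each pattern, since it lets the letters before a start be set beside the behaviour of the gene: Sis of score E, which went up with M by 0.55 on the log2 scale, Fabp2, Clec2h and Krt20 that climbed more, and Lgals2 and Edn2 that ran down. These 6 were chosen after their values were seen, and each had 1 entry. Each line gives the 120 bases before the RefSeq start on build GRCm38.p6, 5′ to 3′ on the gene's strand. The window of Sis lies at chr3:72967864-72967983 on the minus strand, Fabp2 at chr3:122894952-122895071 on the plus strand and Clec2h at chr6:128662265-128662384 on the plus strand. That of Krt20 lies at chr11:99438154-99438273 and Lgals2 at chr15:78855530-78855649, both on the minus strand, and Edn2 at chr4:120161086-120161205 on the plus strand. Capitals mark matches, on either strand, to short motifs named for factors of intestinal differentiation or for the start itself. For the caudal factors, called CDX here, the motif searched was TTTATNG. For the nuclear receptor HNF4 it was CAAAGTC. For the zinc finger factors of the Gata family it was AGATAA. The box of the core promoter was searched as TATAAA.
Sis: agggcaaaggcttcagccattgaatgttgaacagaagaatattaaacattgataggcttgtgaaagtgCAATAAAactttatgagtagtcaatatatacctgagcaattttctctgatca
Fabp2: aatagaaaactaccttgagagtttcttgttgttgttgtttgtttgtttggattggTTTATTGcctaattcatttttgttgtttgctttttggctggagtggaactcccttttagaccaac
Clec2h: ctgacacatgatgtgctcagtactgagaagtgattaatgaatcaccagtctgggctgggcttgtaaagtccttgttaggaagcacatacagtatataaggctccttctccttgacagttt
Krt20: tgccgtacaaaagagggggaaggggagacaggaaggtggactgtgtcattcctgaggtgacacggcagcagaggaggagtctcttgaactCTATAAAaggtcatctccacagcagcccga
Lgals2: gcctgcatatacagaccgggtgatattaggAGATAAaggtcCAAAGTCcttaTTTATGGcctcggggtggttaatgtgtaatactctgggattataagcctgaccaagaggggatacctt
Edn2: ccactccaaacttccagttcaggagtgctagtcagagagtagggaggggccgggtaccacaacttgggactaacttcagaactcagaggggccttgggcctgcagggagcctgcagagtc

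Sis and Fabp2 held the CDX letters beginning 52 and 65 bases before the start, on the opposite strand in Sis. Krt20 held them 30 bases before the start, where they overlap TATAAA. Lgals2 held Gata, HNF4 and CDX letters 90, 79 and 68 bases before its start. Clec2h and Edn2 held none of the 4 motifs in these windows. Over 32851 RefSeq windows of the same length, the CDX letters were found in 4.73%, the Gata letters in 4.36%, the HNF4 letters in 1.75% and TATAAA in 6.34%. A match is a description of the letters only, and no binding was measured in this series.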

How the data were processed

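Single cells of mouse intestinal organoids were captured on a 10x Chromium with 3′ v2 chemistry, per the labels' protocols, and Cell Ranger 1.3.0 and build mm10 are named in the submitters' processing notes. UMI counts and log2 values were both deposited by the authors, for 15745 genes in 1863 cells, of which 15681 genes were matched to symbols. The deposited log2 values equal the log2 of the count over a size factor plus 1, with the size factor taken as a cell's total over the mean total. Cell names are running numbers and not barcodes, so shared barcodes could not be counted.

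Members, mature cells and the rest were set from the log2 values of day 5. UMI counts were summed per class and scaled to CPM. Log2 ratios had 0.5 UMI added to each sum, and intervals are exact Poisson or Clopper-Pearson intervals at 95%, which cover counting error only. A gene was called at 1.5-fold with intervals apart, at a mean of at least 10 CPM, and the 15 score genes were left out of counts. The members and lists were chosen with earlier results of these data known. Named genes are the 12 highest and 12 lowest log2 ratios among called genes with a mean of at least 100 CPM, no cell with over 20% of the gene's UMIs in a class and the same direction in the mean log2 value, without mitochondrial, ribosomal and predicted genes, plus score genes and the ends of each list. Other genes named were chosen after their values were seen. Shares were thinned to 6700 UMIs per cell, with no day 5 cell lost. Doublets were sought with Scrublet in scanpy 1.11.5 at an expected 6% and kept. Python 3.11.15, numpy 2.4.6, pandas 2.3.3, scipy 1.17.1 and matplotlib 3.10.9 were used, with edgeR 4.0.16 for TMM factors only. The summing and calling steps were tested on simulated data.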

Additional observations from a re-analysis of the deposited data

How the results depend on the processing

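Against mature cells, where 195 genes were higher and 833 lower in members, the counts were 377 and 502 with TMM scaling, 112 and 348 at a mean of at least 50 CPM, 360 and 1345 with each cell weighed alike, 80 and 328 in cells at or above the members' median UMI count, 42 and 340 at 2-fold, and 385 and 462 without ribosomal and mitochondrial genes, a setting added after the data were seen. Against the rest, 929 were higher and 1549 lower of 6304 genes measured. The counts were 371 and 390 of 1953 genes at 50 CPM, and 444 and 940 of 6304 at 2-fold. The lower count was 2527 of 14144 with no minimum and 2418 of 7987 without ribosomal and mitochondrial genes. Against mature cells the genes measured were 1959 at 50 CPM and 7185 without ribosomal and mitochondrial genes, beside 5985 as reported. Counts over different totals cannot be set side by side as a rise or fall. Calls with each cell weighed alike used the 1.5-fold limit alone, without the condition on intervals. The counts of that setting are therefore not like for like with the others. The causes were not tested. The named genes kept their calls, 12 of 12 in each direction, in every setting run except for those higher than in mature cells. Of these 9 of 12 kept theirs among the deeper cells and 2 of 12 at 2-fold. A minimum of mean CPM does not enter a call, so the settings with no minimum and with 50 CPM could not change any of them. The setting with each cell weighed alike lacked the condition on intervals. The named genes were also picked as the most extreme ratios, so kept calls are no test of them. The BMP list median against mature cells turned to 0.25 with no minimum and 0.46 without ribosomal and mitochondrial genes. Both of these medians are over 5 genes, while the reported one is over 3. Agr2 turned to 0.46 against mature cells without the top 5% of cells by UMIs and to 1.27 without goblet-rich cells, and against the rest Muc2, Spink4 and Zg16 turned to 0.07, 0.17 and 0.03 without those cells. The Agr2 values rest on few UMIs, with 22 in all members. Gcg turned to 1.71 against the rest in the deeper cells. That value also rests on few UMIs, since the 10 enteroendocrine markers, Gcg among them, had 61 in all members together. Of 200 members, 165 stayed members with 180 cells dropped by M, 166 with 280 dropped and 188 with scores from counts per 10000 UMIs. The comparison with day 3 cells within the same limits could not be run, since no day 3 cell lay within them. No paired analysis was possible because each day had 1 library. Depth limits genes under 10 CPM, which were not counted.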

Other observations

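Some other gene groups of the members are given here. Over all genes 3.26% were higher and 13.9% lower than in mature cells, and 14.7% higher and 24.6% lower than in the rest. Of 5 claudins, the barrier-forming proteins of tight junctions, none differed from mature cells, with a median log2 ratio of 0.11. Of 11 cholesterol synthesis genes 3 were lower than in mature cells, with a median of -0.31, or 1 without ribosomal and mitochondrial genes, and against the rest 2 were higher and 1 lower. Among 8 immediate early and heat shock genes Ier2 was higher than in mature cells at 0.68 and Dusp1 lower at -0.98, while 6 of 8 were higher than in the rest, or 3 of 8 without ribosomal and mitochondrial genes. Of 4 MHC class I genes 2 were lower than in mature cells, H2-K1 at -1.04 and B2m at -0.79, or 1 of 5 without ribosomal and mitochondrial genes. Chaperonin and heat shock genes, a list chosen after its values were seen, were higher than in mature cells in 5 of 10 cases and lower than in the rest in 8 of 10.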
